A study of Sus scrofa with 5 samples.

Results

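The VEGF and angiopoietin genes were followed in a pig kidney xenotransplanted into a human, by RNA sequencing of kidney core tissue. The set has 8 genes chosen by name: VEGFA, VEGFB, VEGFC, PGF, ANGPT1, ANGPT2, ANGPTL4 and APLN. Of the 8, 6 were measured in the pig table, and these 6 all passed the filter on low counts, among 12620 genes tested of 15235 symbols. VEGFB and PGF were read only from the human table. The groups were 3 core biopsies of the xenograft, 1 each at 12, 24 and 48 h after transplantation, and 2 control libraries (replicates 1 and 2) of untransplanted control kidney at 0 h. Strain, genotype, age and drug treatment of the pig and of the recipient are not given in the sources used here. The biopsies came from a single graft, and nothing in the labels says that the controls came from separate animals, so each p-value measures the spread between these 5 libraries alone. Each time is 1 core, so a change over time cannot be told apart from a difference between cores. The labels call the material dissociated cells, while their protocol describes homogenised cores.

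VEGF ligands act on endothelial cells. VEGFA signals through the receptor KDR, is bound by the decoy receptor FLT1, and is made in the kidney mainly by podocytes and tubule cells, where it maintains the glomerular and peritubular capillaries. VEGFB and PGF bind FLT1, while VEGFC binds FLT4 and drives growth of lymphatic vessels. ANGPT1, made by mesenchymal cells around vessels and by podocytes, activates the endothelial receptor TIE2, encoded by TEK, and keeps vessels quiet and tight. ANGPT2, made by activated endothelial cells, mostly opposes ANGPT1 at the same receptor. ANGPTL4 is a secreted inhibitor of lipoprotein lipase induced by fasting and by low oxygen, and APLN encodes apelin, the peptide ligand of the receptor APLNR.

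Totals ranged from 56129926 to 66169176 counts in the biopsies and from 65919506 to 71108823 in the controls. Levels are given as CPM (counts scaled to a common library size) after TMM scaling, which corrects each library for its depth and composition. The 13 mitochondrial genes took 11.8% to 14.5% of counts in the biopsies, against 21.9% and 33.4% in the controls. Kidney identity was checked by marker genes: summed over 8 proximal tubule genes the level was 7152 to 9048 CPM in the biopsies and 20123 to 21097 CPM in the controls. Over 6 genes of thick limb, distal tubule and collecting duct it was 4872 to 9154 CPM in the biopsies and 4800 to 5269 CPM in the controls. UMOD and CALB1 made up most of this second sum, and CALB1 had 967, 3264 and 830 CPM at 12, 24 and 48 h. Its genes went both ways: SLC12A3 had 26.7 to 74.1 CPM in the biopsies, against 164 and 192 CPM in the controls. AQP3 had 124 to 239 CPM, against 69.6 and 70.9 CPM. In whole tissue, fewer cells of a type and less RNA per cell cannot be told apart.

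How the graft differed from untransplanted kidney was addressed by setting the 3 biopsies against the 2 controls over all tested genes, with edgeR's quasi-likelihood test and Benjamini-Hochberg adjustment at 0.05. Of the 6 measured members, 1 was higher (ANGPT2), 1 was lower (VEGFA) and 4 did not pass. Over all genes, 37.5% were called in this comparison, 18.5% higher and 19% lower, so the members' share of calls was near that of any genes. The median log2 fold change of the 6 members was 0.20, and that of all tested genes was 0.03. The members that did not pass included ANGPT1, whose level differed between the biopsies by a larger factor than that of any other member.

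**Figure D1:**
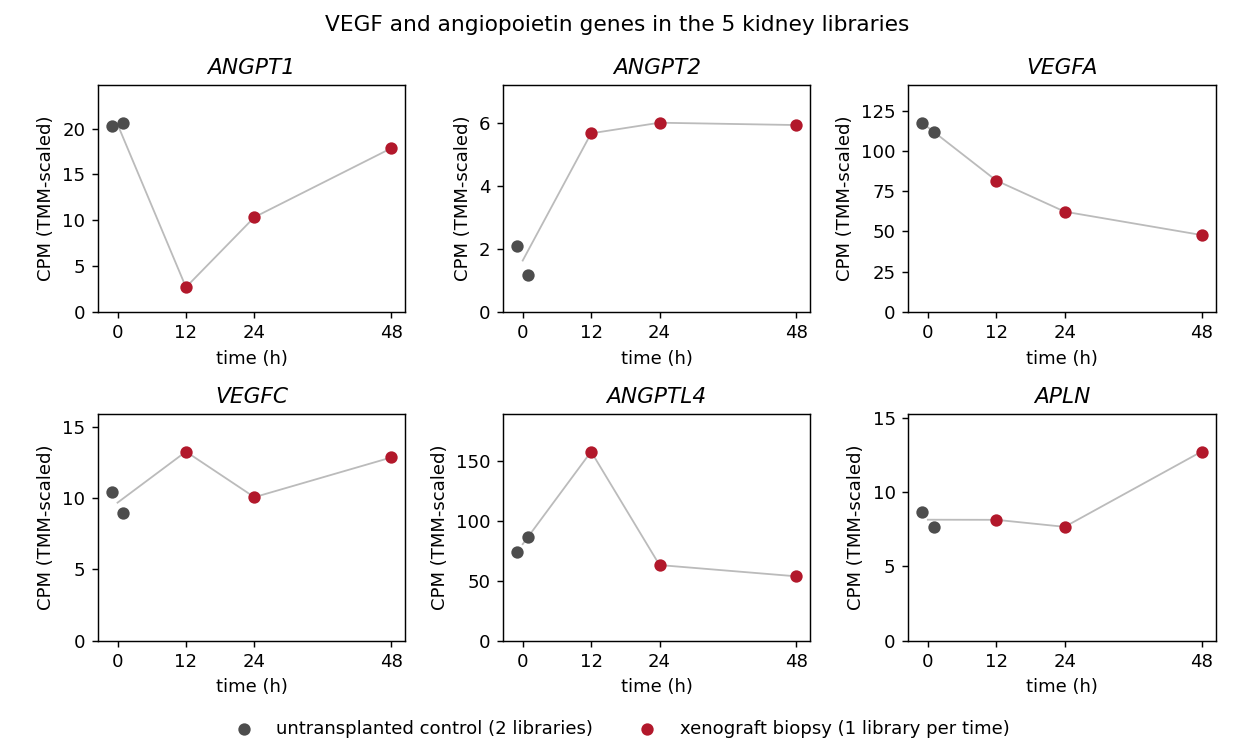
TMM-scaled CPM (vertical axes, each from 0) of the 6 members in the pig table against time in hours; dark points are the 2 untransplanted controls, red points are the biopsies at 12, 24 and 48 h, and the line joins the control mean to the biopsies. ANGPT1 was lowest at 12 h with 2.67 CPM, ANGPT2 lay near 6 CPM in the 3 biopsies (5.67 to 6.003), and VEGFA was lower at each later time.

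ANGPT2 was higher in the xenograft at every time. It had 5.67, 6.003 and 5.93 CPM at 12, 24 and 48 h, against 2.08 and 1.17 CPM in control replicates 1 and 2. The biopsies lay within 1.06-fold of each other and all above both controls, which differed 1.77-fold. Biopsies and controls did not overlap in 3 of the 6 members (ANGPT2, ANGPT1 and VEGFA), and in 66.2% of all tested genes. The mean was 5.87 ± 0.18 CPM in the biopsies (SD, n = 3) and 1.62 ± 0.64 CPM in the controls (SD, n = 2). The increase was 3.60-fold (log2 1.85 ± 0.31, SE, edgeR adjusted p = 0.00452). These values rest on 398 to 437 counts per biopsy and on 124 and 61 counts in the controls. Without control replicate 2, the lower of the pair, log2 was 1.497 and the adjusted p was 0.0516.

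ANGPT1 was lower in the biopsies, most at 12 h and least at 48 h. It had 2.67, 10.3 and 17.8 CPM at 12, 24 and 48 h, against 20.3 and 20.6 CPM in the controls, whose values lay within 1.02-fold of each other. The 12 h biopsy was the lowest library and the 48 h biopsy the closest to the controls, and the 3 biopsies all lay below both controls. The biopsies spanned 6.69-fold among themselves, and the pooled comparison did not pass (log2 -0.99 ± 0.66, SE, 3 biopsies against 2 controls, edgeR adjusted p = 0.279). Without the 48 h biopsy it was log2 -1.65 (adjusted p = 0.0527), and without the 12 h biopsy -0.54 (adjusted p = 0.132).

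Each time was therefore also set against the controls, and each biopsy against the one before it. There the only repeated group is the pair of controls (1 residual degree of freedom). Its spread stands in for that of every single biopsy, and the fit pools that spread in part over all tested genes. A p-value here is therefore not measured against a gene's own control pair alone. At 12 h the SE was 0.25 for ANGPT2 and 0.22 for ANGPT1, although their controls differed 1.77-fold and 1.02-fold. The p-values are only as good as these assumptions. At 12 h, 3 members were higher and 2 lower, beside 28.5% and 28.2% of all genes (56.7% in either direction). At 24 h, 1 was higher and 3 lower, beside 24.2% and 23.3% (47.5% in either direction). At 48 h, 2 were higher and 2 lower, beside 26.8% and 24.7% (51.5% in either direction). From 12 to 24 h 2 of 6 members passed, beside 12.8% of all genes, and from 24 to 48 h 2 of 6, beside 8.3%. The comparisons at the 3 times use the same controls, and adjacent steps share a biopsy. ANGPT1 was 7.67-fold lower than the controls at 12 h (log2 -2.94 ± 0.22, adjusted p = 1.1e-33) and 1.98-fold lower at 24 h (log2 -0.99 ± 0.19, adjusted p = 1.83e-06). At 48 h its log2 value against the controls was -0.20 ± 0.18 (adjusted p = 0.373). The step from 12 to 24 h was an increase of 3.87-fold (log2 1.95 ± 0.23, adjusted p = 2.13e-13) and that from 24 to 48 h one of 1.73-fold (log2 0.79 ± 0.21, adjusted p = 0.00497). With DESeq2 the later step did not pass (adjusted p = 0.177). A straight slope over 12, 24 and 48 h (2 residual degrees of freedom) was called in 0 of the 6 members with edgeR, beside 4.33% of all genes. By an unadjusted p under 0.05 it was called in 4 of 6 members, beside 19.2% of all genes. With DESeq2 1 member rose and 2 fell, beside 4.88% and 2.18% of all genes. For ANGPT1 the slope was 2.997-fold per 24 h and missed the threshold (log2 1.58 ± 0.34, adjusted p = 0.054). It passed with DESeq2 (adjusted p = 5.96e-06), with upper-quartile scaling (0.0485) and with human-table counts added (0.0419). With 1 biopsy left out the slope is only the difference between the 2 that remain, and it no longer tests a trend. It was log2 0.79, 1.83 and 3.91 per 24 h without the 12, 24 and 48 h biopsy, so the size of the slope depends on which times are used.

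ANGPT2 did not pass at either step between the biopsies (log2 0.08 ± 0.27 from 12 to 24 h, adjusted p = 0.895, and -0.018 ± 0.27 from 24 to 48 h, adjusted p = 0.992). It was 3.46-fold, 3.67-fold and 3.62-fold above the controls at 12, 24 and 48 h (adjusted p = 2.25e-11, 3.36e-12 and 4.93e-12). Within a library the balance of the 2 ligands can be read as a count ratio whose gene lengths cancel between libraries. There were 212, 58.2 and 33.2 ANGPT2 counts per 100 ANGPT1 counts at 12, 24 and 48 h, against 10.2 and 5.67 in the controls. Relative to the control mean the ratio was 26.7-fold higher at 12 h, 7.32-fold at 24 h and 4.18-fold at 48 h. The ratio was highest at 12 h and the 3 biopsies all lay above both controls. This ratio is given as a description, with no test of its own.

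TEK, TIE1 and PTPRB act in angiopoietin signalling on endothelial cells. TEK encodes the receptor TIE2 and TIE1 its partner receptor, while PTPRB encodes the endothelial phosphatase that removes phosphate from TIE2. TEK had 97.5, 167 and 129 CPM at 12, 24 and 48 h, against 84.1 and 65.2 CPM in the controls, an increase of 1.76-fold (log2 0.81 ± 0.24, adjusted p = 0.0379). PTPRB had 109, 116 and 88.1 CPM in the biopsies, against 39.2 and 25.1 CPM in the controls, and rose 3.25-fold (log2 1.70 ± 0.23, adjusted p = 0.00216). Both genes were higher in each of the 3 biopsies than in either control. TIE1 had 25.3, 32.1 and 39.3 CPM, against 23.5 and 23.1 CPM, and did not pass (log2 0.47 ± 0.19, adjusted p = 0.0962). The TEK call was lost when either control or the 24 h biopsy was dropped (adjusted p = 0.1, 0.248 and 0.0754 without control 1, control 2 and the 24 h biopsy), while PTPRB passed in each of the 5 fits that left out 1 library.

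**Figure D2:**
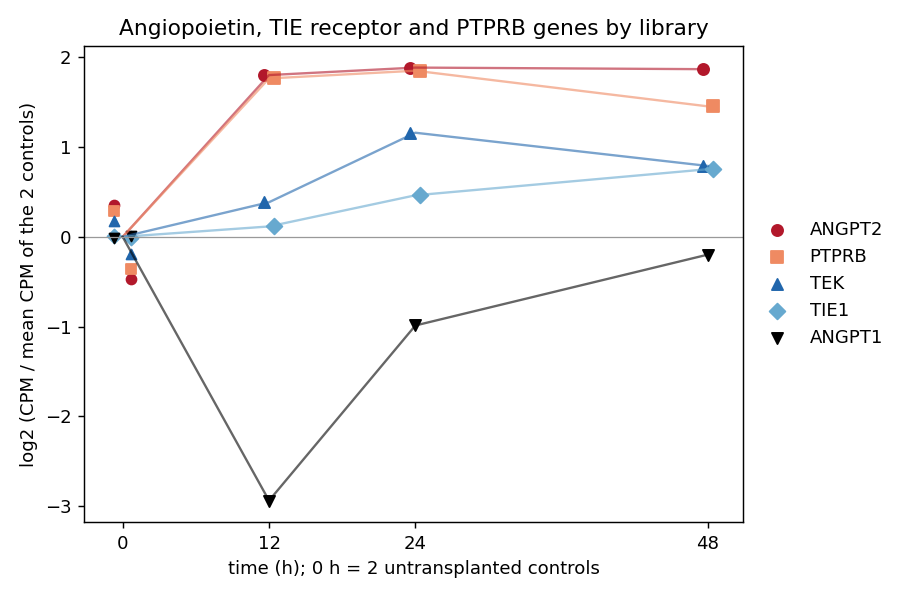
Log2 ratio of CPM to the mean of the 2 controls (vertical axis) against time in hours for the angiopoietin genes, the receptor genes TEK and TIE1 and the phosphatase gene PTPRB; the paired points at 0 h are the single controls, and points at 1 time are shifted slightly sideways. ANGPT1 was lowest at 12 h and nearest to the controls at 48 h, while ANGPT2 and PTPRB were above the controls in the 3 biopsies.

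VEGFA was lower in the xenograft and lower at each later biopsy. It had 81.7, 62.3 and 47.8 CPM at 12, 24 and 48 h, against 118 and 112 CPM in the controls. The controls differed 1.05-fold, and each biopsy lay below both of them. The mean was 63.9 ± 17.0 CPM in the biopsies (SD, n = 3) and 115 ± 4.0 CPM in the controls (SD, n = 2). The decrease was 1.80-fold (log2 -0.85 ± 0.21, SE, adjusted p = 0.0212). The VEGFA call was lost when either control or the 24 h biopsy was dropped (adjusted p = 0.125, 0.121 and 0.0629 without control 1, control 2 and the 24 h biopsy), with log2 values from -1.06 to -0.67 over the 11 alternative fits tried. Against the controls, VEGFA was 1.41-fold lower at 12 h, 1.84-fold at 24 h and 2.41-fold at 48 h (adjusted p = 0.00365, 2.24e-07 and 1.99e-13). Its slope was -0.50 ± 0.12 (log2 per 24 h) and missed the threshold with edgeR (adjusted p = 0.055), though not with DESeq2 (adjusted p = 0.0159). Neither single step passed (adjusted p = 0.136 and 0.202).

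VEGFC, the lymphatic growth factor gene, did not pass in the pooled comparison. It had 13.3, 10.1 and 12.8 CPM at 12, 24 and 48 h, against 10.4 and 8.95 CPM in the controls, and the groups overlapped through the 24 h biopsy. The log2 fold change was 0.32 ± 0.18 (adjusted p = 0.21). At 12 h alone it was 1.37-fold higher than the controls (adjusted p = 0.0341), which did not hold with DESeq2 (adjusted p = 0.203) or with human-table counts added (adjusted p = 0.0693).

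ANGPTL4 peaked in the 12 h biopsy. It had 158, 63.2 and 53.7 CPM at 12, 24 and 48 h, against 74.3 and 87.1 CPM in the controls, so that the first biopsy lay above both controls and the later biopsies below both. The pooled log2 fold change was 0.18 ± 0.47 (adjusted p = 0.782), and without the 12 h biopsy it was -0.46 and passed (adjusted p = 0.0326). At 12 h ANGPTL4 was 1.96-fold above the controls (log2 0.97 ± 0.15, adjusted p = 7.07e-10), and at 48 h it was 1.501-fold below them (log2 -0.59 ± 0.16, adjusted p = 0.000615). Its value at 24 h was log2 -0.35 ± 0.15 against the controls, with an adjusted p of 0.0483 that passed 0.05 in only 1 of 6 alternative fits. The decrease from 12 to 24 h was 2.50-fold (log2 -1.32 ± 0.18, adjusted p = 8.9e-11).

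APLN was within the range of the controls at 12 and 24 h and above it at 48 h. It had 8.14, 7.67 and 12.7 CPM at 12, 24 and 48 h, against 8.67 and 7.62 CPM in the controls. The pooled comparison did not pass (log2 0.22 ± 0.26, adjusted p = 0.519), and log2 was -0.044 without the 48 h biopsy. At 48 h APLN was 1.56-fold above the controls (log2 0.64 ± 0.20, adjusted p = 0.00381) and 1.66-fold above the 24 h biopsy (log2 0.73 ± 0.24, adjusted p = 0.0294), and neither held with DESeq2 (adjusted p = 0.0849 and 0.465). Its receptor gene APLNR had 0.912, 2.24 and 8.67 CPM at 12, 24 and 48 h, against 18.6 and 16.5 CPM in the controls. APLNR was thus lowest at 12 h and below both controls in every biopsy. The pooled value did not pass (log2 -2.16 ± 0.82, adjusted p = 0.085), while APLNR rose along the biopsies by 4.33-fold per 24 h (log2 2.11 ± 0.18, adjusted p = 0.000782).

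VEGFB and PGF could be read only as human-table counts, in which pig and human transcripts cannot be told apart. VEGFB had 648, 613 and 598 counts at 12, 24 and 48 h, against 564 and 557 counts in the controls. Set on the TMM-scaled library size of the pig table, as CPM, that is 8.95, 8.42 and 8.91 CPM in the biopsies, against 9.44 and 10.7 in the controls. PGF, the placental growth factor gene, had 13, 39 and 28 human-table counts in the biopsies, against 2 and 3 counts in the controls, so that each biopsy lay above both controls. On the same scale PGF was at 0.180, 0.536 and 0.417 CPM in the biopsies, against 0.0335 and 0.0576 in the controls. Neither gene was tested.

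The 6 measured members also had counts in the human table, which bears on what the pig values hold. In the controls, which contained pig tissue only by their labels, the human table took 42.3% and 44.9% of the summed VEGFA counts of both tables, 29.2% and 24.4% for ANGPT1, 23.6% and 22.1% for VEGFC, 23.0% and 20.8% for ANGPT2, 5.21% and 4.55% for ANGPTL4, and 3.18% and 1.98% for APLN. The shares in the biopsies were 39.7% to 40.3% for VEGFA and 27.3% to 30.3% for ANGPT1. They were 21.8% to 23.4% for VEGFC, 16.7% to 22.7% for ANGPT2, 4.17% to 4.99% for ANGPTL4 and 1.95% to 3.29% for APLN. The median share over 12551 shared symbols tested was 18.2% to 20.3% in the biopsies, against 14.7% and 15.7% in the controls. For each of these 6 genes except ANGPT1 and APLN the highest biopsy share was below that of control replicate 1. It was above that of control replicate 2 for each of the 6 except VEGFA. For ANGPT1 the 95% Clopper-Pearson interval of the 48 h share (28.1% to 32.5%) overlapped that of control replicate 1 (27.1% to 31.4%) and lay above that of control replicate 2 (22.2% to 26.7%). With the human-table counts added to the pig counts, the pooled calls of ANGPT2 and VEGFA held and no other member was called. The human-table shares of ANGPT2 and VEGFA differed little between libraries. The addition could therefore hardly change those calls and is not a separate test of them.

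**Figure D3:**
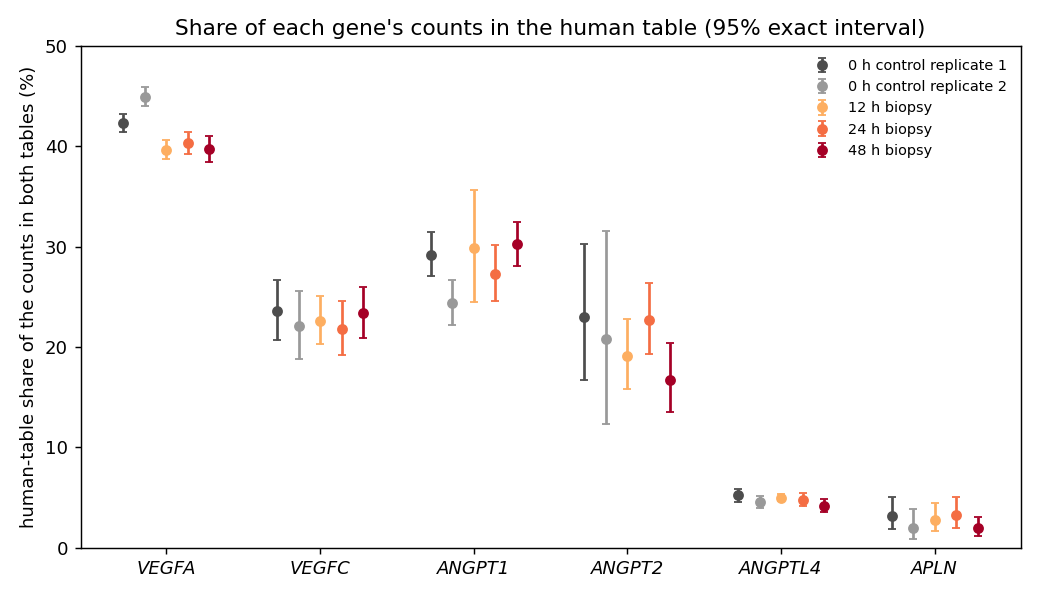
Percentage of each gene's counts over both tables that lay in the human table (vertical axis), by gene and library, with exact 95% Clopper-Pearson intervals that cover counting error only. The share differed by gene, from 1.95% to 40.3% in the biopsies and from 1.98% to 44.9% in the controls.

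Of 9 receptor, co-receptor and associated genes, 4 were higher and 0 lower in the xenograft, beside 18.5% and 19% of all genes. Their median log2 fold change was 0.70, beside 0.03 over all genes. DESeq2 likewise gave 4 higher and 0 lower, beside 21.8% and 21.2% of all genes. By an unadjusted p under 0.05 edgeR gave 5 higher and 1 lower, beside 48.6% of all genes in either direction. KDR, the main signalling receptor of VEGFA, had 90.5, 90.4 and 83.5 CPM at 12, 24 and 48 h, against 109.9 and 84.1 CPM in the controls, and was at log2 -0.14 ± 0.15 (adjusted p = 0.479). FLT1, the decoy receptor, had 98.7, 81.5 and 46.04 CPM, against 53.5 and 39.6 CPM in the controls. It was 2.12-fold above the controls at 12 h (adjusted p = 1.4e-11) and fell by 0.75 on the log2 scale per 24 h (SE 0.15, adjusted p = 0.0324), and the pooled value did not pass (log2 0.70 ± 0.33, adjusted p = 0.142).

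The neuropilin genes NRP1 and NRP2 encode co-receptors that bind VEGF family ligands. NRP1 had 149, 169.5 and 216 CPM in the biopsies, against 91.2 and 68.6 CPM in the controls, and rose 2.23-fold (log2 1.15 ± 0.21, adjusted p = 0.00607). NRP2 had 24.9, 25.9 and 34.2 CPM, against 20.8 and 13.3 CPM, and rose 1.66-fold (log2 0.73 ± 0.23, adjusted p = 0.0454). For both genes the 3 biopsies lay above both controls. FLT4, the VEGFC receptor, had 3.95, 6.40 and 9.15 CPM in the biopsies, against 9.07 and 7.74 CPM in the controls. The 12 and 24 h biopsies lay below both controls and the 48 h biopsy slightly above both (pooled log2 -0.37 ± 0.34, adjusted p = 0.415). Fewer of the 9 genes were higher without control 1 or control 2, as over all genes. Without the 24 h biopsy 2 of the 9 were higher, beside 1852 genes over all. Without the 48 h biopsy 4 were higher and 1, APLNR, lower, beside 2523 and 2482 genes over all.

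**Figure D4:**
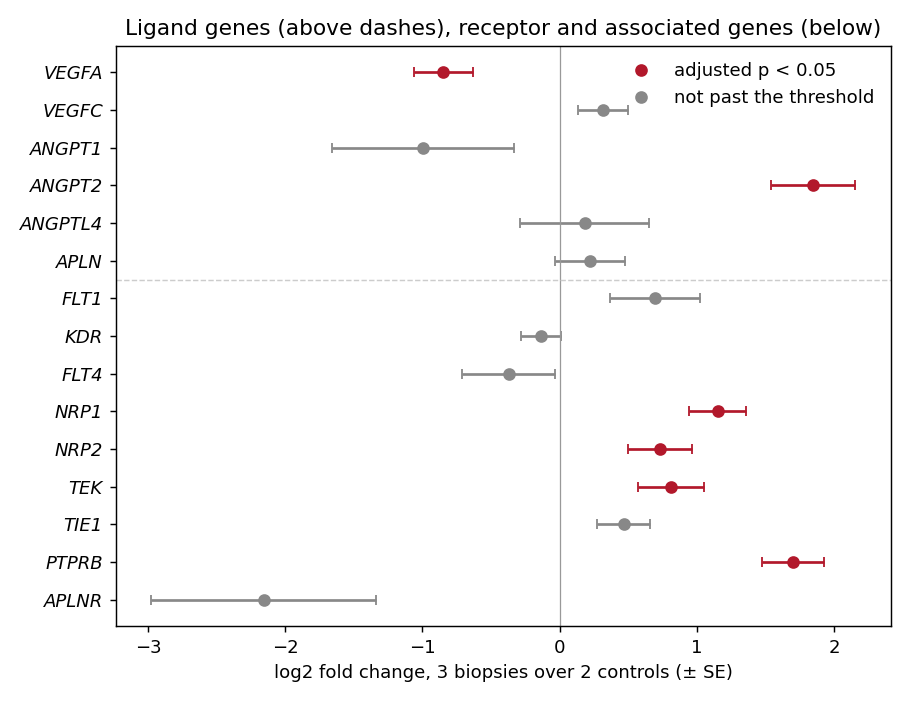
Log2 fold change of the 3 biopsies over the 2 controls (horizontal axis, bars ± SE) for the 6 measured ligand genes and the 9 receptor, co-receptor and associated genes. ANGPT2, NRP1, NRP2, TEK and PTPRB were higher and VEGFA lower at an adjusted p under 0.05, shown in red.

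Other ligand genes of these families were read in the same comparison. VEGFD, another FLT4 ligand gene, had 16.5, 24.7 and 27.5 CPM, against 17.6 and 11.1 CPM, and did not pass (log2 0.68 ± 0.28, adjusted p = 0.104). ANGPTL2 was at log2 0.72 ± 0.28 (adjusted p = 0.0833) and ANGPTL1 at -0.028 ± 0.44 (adjusted p = 0.967).

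Of 16 genes tested that endothelial cells use in or switch on under VEGF and Notch signalling, 7 were higher and 2 lower. This stood beside 18.5% and 19% of all genes, and the median log2 fold change was 0.78. CXCR4, a chemokine receptor gene of sprouting endothelium that leukocytes also express, had 19.2, 15.1 and 17.6 CPM in the biopsies, against 4.92 and 5.38 CPM in the controls, and rose 3.36-fold (log2 1.75 ± 0.17, adjusted p = 0.000836). PDGFB, which recruits pericytes, rose 2.53-fold (log2 1.34 ± 0.14, adjusted p = 0.000965). The other genes that rose were NOS3, UNC5B, RCAN1, ESM1 and NOTCH4. The genes that fell were the immediate early factors NR4A1 (log2 -3.45 ± 0.16, adjusted p = 0.000166) and EGR3 (log2 -3.15 ± 0.51, adjusted p = 0.00411). Without control replicate 1 or 2, fewer genes of this list were higher, as were fewer genes over all.

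Genes of oxygen sensing and HIF targets, the class to which VEGFA belongs, went both ways. Of 17 tested, 9 were higher and 2 lower, beside 18.5% and 19% of all genes, with a median log2 fold change of 0.61. HIF1A, encoding the oxygen-regulated factor, had 322, 259 and 229 CPM at 12, 24 and 48 h, against 108 and 96.4 CPM in the controls, and rose 2.64-fold (log2 1.40 ± 0.18, adjusted p = 0.00189). HK2, encoding a hexokinase, rose 7.37-fold (log2 2.88 ± 0.39, adjusted p = 0.00225). BNIP3, a mitophagy gene, had 86.5, 98.1 and 82.0 CPM, against 226 and 288 CPM, and fell by 1.53 on the log2 scale (SE 0.15, adjusted p = 0.000858). NDRG1, another HIF target, had 647, 484 and 378 CPM, against 999.96 and 1072 CPM in the controls, and fell by 1.04 on the log2 scale (SE 0.23, adjusted p = 0.0131). Like VEGFA, NDRG1 was lower at each later biopsy and below both controls throughout. EPO, the erythropoietin gene, was picked after its values were seen: it had 70, 41 and 17 counts at 12, 24 and 48 h, against 1 count in each control. Fewer genes of the list were called in either direction without control replicate 1 or 2, as over all genes.

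**Figure D5:**
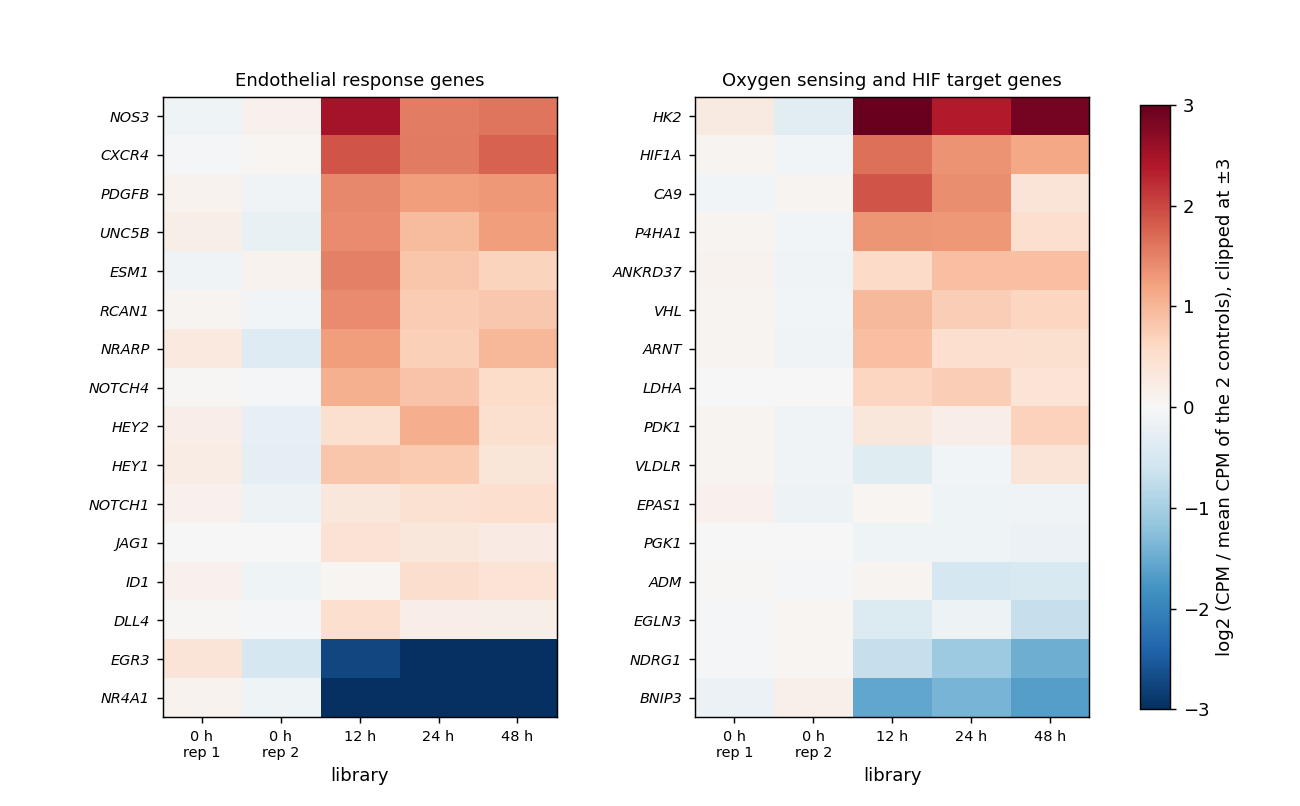
Log2 ratio of CPM to the mean of the 2 controls (colour, limited to ±3) for tested genes of the endothelial response list (left) and the oxygen sensing list (right, EPO left out because it had 1 count in each control); columns are the 5 libraries and rows are ordered by the mean over the biopsies. NOS3, CXCR4, HK2 and HIF1A were high in the 3 biopsies, and NR4A1, EGR3, BNIP3 and NDRG1 were low.

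PPAR and fasting targets, the class to which ANGPTL4 also belongs, gave 2 higher and 4 lower of 11 tested (median log2 -0.13). The share higher was near that of all genes (18.5%), and the share lower stood beside 19% of all genes. CPT1A, the entry enzyme of mitochondrial fatty acid oxidation, rose 1.85-fold (adjusted p = 0.00349) and PPARG 2.11-fold (adjusted p = 0.0231), while CREB3L3 was 15.1-fold lower (adjusted p = 0.000719). Calls in both directions were fewer in the fits without control replicate 1 or 2, as over all genes.

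Markers of the cells that make or receive these ligands moved as well, and their part in the members' values was not tested. The counts of markers below stand beside 18.5% of all genes higher and 19% lower. Podocyte genes, from cells that make VEGFA and ANGPT1, were lower in 6 of 9 and higher in 1. Their sum was 234, 302 and 353 CPM at 12, 24 and 48 h, against 551 and 472 CPM in control replicates 1 and 2. NPHS1 (4.21-fold lower) and PLA2R1 (2.51-fold lower) had the smallest adjusted p, and SYNPO was the member that rose. Endothelial genes, from cells that make ANGPT2 and express its receptors, were higher in 7 of 12 and lower in 0. The smallest adjusted p were those of PECAM1 (3.68-fold) and ESAM (2.63-fold). TAL1 (log2 -0.45, adjusted p = 0.118) and EMCN (log2 -0.007, adjusted p = 0.984) had negative pooled values and did not pass. The list summed to 875 to 988 CPM in the biopsies and 376 to 445 CPM in the controls. PECAM1 alone had 358 to 397 CPM in the biopsies and 89.8 to 116 CPM in the controls. Pericyte and mesenchymal genes, from cells that make ANGPT1, were higher in 8 of 10. Their sum was 1301, 1906 and 2997 CPM at 12, 24 and 48 h, against 930.0 and 720 CPM in the controls. Matrix genes took a large part of that sum, DCN with 428, 685 and 1089 CPM and COL1A1 with 222, 527 and 770 CPM. Not every gene followed the sum: CSPG4 (9.17, 5.15 and 5.23 CPM) and MCAM (69.6, 39.3 and 45.5 CPM) were highest at 12 h. RGS5, a pericyte gene, was the only gene of this list with a negative pooled value, and did not pass (log2 -0.71 ± 0.46, adjusted p = 0.265). It had 19.1, 21.9 and 55.5 CPM at 12, 24 and 48 h, against 51.9 and 53.2 CPM in the controls. Any link between these marker levels and ANGPT1 was not tested.

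Lymphatic endothelial genes were higher in 1 of 5, a share near the 18.5% of all genes that were higher. The 1 was LYVE1 at 4.81-fold, a gene that macrophages also express. PROX1, the defining lymphatic factor, was at log2 -0.25 ± 0.34 (adjusted p = 0.59). Macrophage genes were higher in 5 of 8, beside 18.5% of all genes, and summed to 446 to 838 CPM in the biopsies and 118 to 141 CPM in the controls. Of 3 platelet genes tested, 0 were called with edgeR or DESeq2, beside 37.5% of all genes with edgeR. By an unadjusted p under 0.05 edgeR gave 1 higher, beside 48.6% of all genes in either direction. PPBP, a platelet chemokine gene, had 0 to 4 counts in the biopsies and 2 to 3 in the controls. Without control replicate 1 or 2, fewer podocyte genes were lower and fewer endothelial and pericyte genes higher, and calls also fell over all genes.

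By pattern over the 5 libraries, the genes nearest to ANGPT2 were OXTR, SPON1 and ZBED4, and those nearest to VEGFA were RASL10A, DUSP4 and GPR183. Nearness was the root mean square difference of log2 CPM centred on each gene's mean, which was 0.126 to 0.132 for the neighbours of ANGPT2, against a median of 0.987 over all tested genes. It was 0.062 to 0.082 for those of VEGFA, against a median of 0.574. DUSP4, a phosphatase gene of the MAP kinase pathway, had 9.797, 7.62 and 5.05 CPM at 12, 24 and 48 h, against 14.1 and 13.4 CPM in the controls. SPON1, which encodes a matrix protein, had 230, 302 and 239 CPM in the biopsies, against 83.4 and 53.4 CPM in the controls. With 5 libraries and 12620 genes such likeness is a description only.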

How the data were processed

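Total RNA of homogenised kidney cores was sequenced after ribosomal RNA depletion, per the labels. The authors deposited 2 tables of raw counts, for 15235 pig and 59385 human gene symbols. The submitters' processing notes name hg38; the aligner, counter, strand setting and annotation are not given in the sources used here, so a read that fits both genomes may count in either table or both. No coordinates are given, and no sequences are printed.

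Counts were scaled by TMM and filtered with filterByExpr (minimum count 10, minimum total 15) in R 4.3.3, then tested with edgeR 4.0.16's quasi-likelihood test (robust) and adjusted by Benjamini-Hochberg over 12620 genes. The ± value of a log2 fold change is an approximate standard error, the log2 value divided by the square root of F. On simulated data the comparison of 3 biopsies with 2 controls made more false calls than its threshold allows, as to a lesser extent did the slope and the 12 h comparison, and it missed many smaller changes. Calls near the threshold are therefore uncertain. On raw counts set against library totals, without TMM, the controls differed by more than sampling noise (chi-square per degree of freedom 213 over 12606 genes). That value includes differences in composition, such as the mitochondrial share, and is not the spread that the tests use. Intervals cover counting error only. Alternatives were RLE and upper-quartile scaling, no filter, DESeq2 1.42.0, removal of mitochondrial genes, addition of human-table counts, and leaving out each library. Other genes were named by rule, as the receptors in full and otherwise those of each list with the smallest adjusted p in each direction. Members and lists were chosen with earlier results of these data known. Results for some genes of the lists are not reported here.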

Additional observations from a re-analysis of the deposited data

Results flagged for a closer look

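Between biopsies, 4 steps of the members passed the test of the difference itself, beside 12.8% of all genes from 12 to 24 h and 8.3% from 24 to 48 h. ANGPT1 rose by log2 1.95 from 12 to 24 h and by 0.791 from 24 to 48 h. ANGPTL4 changed by log2 -1.32 from 12 to 24 h. APLN rose by log2 0.732 from 24 to 48 h. Each step sets 1 library against 1 library, with the spread taken from the control pair and pooled in part over all tested genes.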

How the results depend on the processing

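Of the members' values under the alternatives, 291 kept their direction and their side of the threshold. A further 16 lost a call, 15 gained one and 14 changed sign, 3 of them in fits with no test. The 291 include values from fits with no test. These were counted if they kept direction and moved by less than 1 SD of the control pair. In those fits 1 control was dropped, which by itself moves the control mean by less than about that SD. The SD rule could therefore hardly fail, and these values show only whether the sign held. Leaving out 1 library gave 464 to 2633 genes higher and 727 to 2633 lower for the xenograft comparison (2332 and 2402 with all libraries), and 662 to 1728 rising and 337 to 1037 falling for the slope (422 and 124). DESeq2 gave 265 genes with a falling slope, 1964 higher and 1903 lower at 24 h against the controls (3050 and 2941 with edgeR), 361 and 166 from 12 to 24 h (999 and 612), and 201 and 117 from 24 to 48 h (697 and 350). Upper-quartile scaling gave 180 genes lower from 24 to 48 h, and shifted the median of all genes by 0.11 (log2) at 48 h against the controls.

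With 1 library left out, signs changed in the xenograft comparison for ANGPTL4 (log2 -0.46 to 0.46, lowest with the 12 h biopsy dropped) and APLN (-0.044 to 0.35, lowest with the 48 h biopsy dropped), and in the slope for ANGPT2 (-0.021 to 0.17), VEGFC (-0.79 to 0.35, and -0.030 with the 24 h biopsy dropped) and APLN (-0.17 to 0.73). With human-table counts added the ANGPT2 slope was -0.018. Against the controls signs changed for APLN at 12 h (0.058 with upper-quartile scaling, 0.0049 without a filter, 0.095 without control replicate 1), APLN at 24 h (0.0083 without control replicate 1) and VEGFC at 24 h (-0.010 with human-table counts added, -0.048 without control replicate 2), and from 24 to 48 h for ANGPT2 (0.023 with upper-quartile scaling). The cause was not tested. No paired analysis was possible because the labels number the 2 controls only and each biopsy time is 1 library. Dropping a control left no residual degree of freedom in the comparisons at single times, so those gave fold changes without a test.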
